A study of Homo sapiens with 4 samples.

Results

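The RNA polymerase II pausing and elongation factors examined here are 10 genes chosen by name: the DSIF subunits SUPT5H and SUPT4H1, the NELF subunits NELFA, NELFB, NELFCD and NELFE, the P-TEFb subunits CDK9 and CCNT1, and the 7SK proteins HEXIM1 and LARP7. All 10 were among the 29286 genes listed in each library, and all 10 were among the 13303 that passed a filter on low values. The libraries were RNA-seq of HCT116, a widely used cell line from a human colorectal carcinoma. The control group, shNC (shNC2 in the sample titles), and the knockdown group, shWDR43, each had 2 libraries, called controls and knockdown libraries here. Both groups received hairpin lentiviruses for 48 h, followed by 3 days of puromycin. The comparison asks how RNA levels differed after knockdown of WDR43 with this hairpin. Nothing in the labels says that the replicates were separate cultures, and the p-values cover variation between libraries alone, part or all of which may be technical. No value for WDR43 was used here, so the knockdown could not be checked in these libraries.

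Soon after RNA polymerase II starts a transcript, it can halt near the promoter, held by the dimer DSIF and the NELF complex. P-TEFb, the kinase CDK9 with a cyclin T, phosphorylates DSIF, NELF and the polymerase; NELF then leaves and DSIF stays on as an elongation factor. Much P-TEFb is held inactive in a particle with the 7SK RNA, where HEXIM proteins inhibit the kinase and LARP7 protects the RNA. WDR43 is known for its part in small ribosomal subunit assembly and has also been described at promoters, where it affects the release of paused polymerase. The libraries measured RNA of the genes that encode these factors and not the position of the polymerase.

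None of the 10 genes passed the test between shWDR43 and shNC, at an adjusted p below 0.05 from limma on log2(FPKM + 1), against 6.26% of all 13303 tested genes. FPKM scales the fragments of a gene by its transcript length and by the library total. The largest differences were in NELFB, higher in shWDR43, and in HEXIM1 and LARP7, both lower, with ratios of mean FPKM of 1.25, 0.806 and 0.833. At an unadjusted p below 0.05 there were 2 of the 10, NELFB and HEXIM1, against 26.4% of all tested genes. The groups did not overlap for 6 of the 10, 3 higher and 3 lower, against 57.3% of all tested genes, 35.8% higher and 21.5% lower, so these shares were near the background. The median difference of the 10 was 0.0481 on the log2 scale, and that of all tested genes was 0.0459.

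The promoters of the 3 genes that differed most, though none passed, are shown so that the marked elements can be read in the sequence. No marked element is in all 3. HEXIM1 and LARP7 have CCAAT boxes, HEXIM1 and NELFB have NRF1 cores, and HEXIM1 alone has a TATA box. Each window is the 250 bases before a RefSeq start on GRCh38.p14, plus strand, written 5′ to 3′. Capitals mark a TATA box, a CCAAT box or an NRF1 core on either strand. The HEXIM1 window is chr17:45148225-45148474, that of LARP7 at the first of its 2 listed starts is chr4:112636893-112637142, and that of NELFB is chr9:137255077-137255326.
HEXIM1: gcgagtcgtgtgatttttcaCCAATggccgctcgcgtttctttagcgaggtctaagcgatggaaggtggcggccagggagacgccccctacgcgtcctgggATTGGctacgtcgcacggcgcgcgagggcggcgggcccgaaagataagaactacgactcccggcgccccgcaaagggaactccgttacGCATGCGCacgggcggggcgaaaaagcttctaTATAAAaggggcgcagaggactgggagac
LARP7: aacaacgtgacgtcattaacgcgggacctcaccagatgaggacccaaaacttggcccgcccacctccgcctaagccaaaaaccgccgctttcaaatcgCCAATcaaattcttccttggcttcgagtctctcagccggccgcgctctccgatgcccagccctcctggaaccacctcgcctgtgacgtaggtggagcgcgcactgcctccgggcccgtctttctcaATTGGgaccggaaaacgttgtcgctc
NELFB: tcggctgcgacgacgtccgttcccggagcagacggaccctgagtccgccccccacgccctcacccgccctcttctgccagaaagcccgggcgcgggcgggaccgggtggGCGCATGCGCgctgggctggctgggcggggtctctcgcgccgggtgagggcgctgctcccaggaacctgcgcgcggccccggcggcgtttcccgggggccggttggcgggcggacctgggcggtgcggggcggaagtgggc
In the HEXIM1 window the TATA box lies 29 to 24 bases before the RefSeq start, the NRF1 core 61 to 54 bases before it, and 2 CCAAT boxes lie farther away. GENCODE release 29 starts HEXIM1 farther downstream, at 45148502, so these distances hold for the RefSeq start only. The LARP7 window holds 2 CCAAT boxes and the NELFB window an NRF1 core on each strand, which overlap. GENCODE release 29 starts LARP7 at 112636964 and NELFB at 137255173, inside these windows. The marked elements of both genes lie downstream of those starts, so they are upstream of the RefSeq starts only.

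All 10 genes had a window in the RefSeq table, 13 windows in all because SUPT5H, CCNT1 and LARP7 have 2 listed starts each. HEXIM1 was the only one of the 10 with the TATA box letters TATAAA, which 10.7% of all 35116 windows of this length held on either strand. The GC box GGGCGG was in 11 of the 13 windows, from 9 genes (all but NELFA), and in 42.6% of all windows. The ETS core GGAAGT was in 7 of the 13 windows and in 19.5% of all windows. Those 7 came from 6 genes (SUPT5H, SUPT4H1, NELFB, NELFE, CDK9 and CCNT1). The 2 SUPT5H windows overlap, and both were counted for the GC box and for the ETS core. The CCAAT box, searched by those letters, was in 3 of the 13 windows (CCNT1, HEXIM1 and LARP7) and in 32.01% of all windows. The NRF1 core GCATGCGC was in 2 of the 13 windows (NELFB and HEXIM1) and in 2.63% of all windows. The E-box CACGTG, a sequence that MYC with MAX can bind, was in 1 of the 13 windows (CCNT1) and in 6.34% of all windows. The median GC content was 65.2% over the 13 windows and 58.0% over all windows. The CCNT1 window at 48696239 to 48696488 lies inside the gene, had 29.6% GC and held none of these motifs. These matches describe letters in the windows and not bound sites.

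At the level of RNA, the 10 genes lay close together. In shNC their mean levels ran from 13.7 FPKM for NELFB to 37.3 FPKM for SUPT5H and LARP7, and by mean level over the 4 libraries even the lowest, NELFB, stood at percentile 72.6 of tested genes. In descending order of the shNC mean they were SUPT5H, LARP7, SUPT4H1, NELFCD, NELFE, HEXIM1, NELFA, CDK9, CCNT1 and NELFB. Among neighbours in this order the shNC libraries overlapped between SUPT5H and LARP7, SUPT4H1 and NELFCD, CDK9 and CCNT1, and CCNT1 and NELFB. Both libraries were higher for LARP7 than for SUPT4H1, for NELFCD than for NELFE, for NELFE than for HEXIM1, for HEXIM1 than for NELFA and for NELFA than for CDK9.

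**Figure D1:**
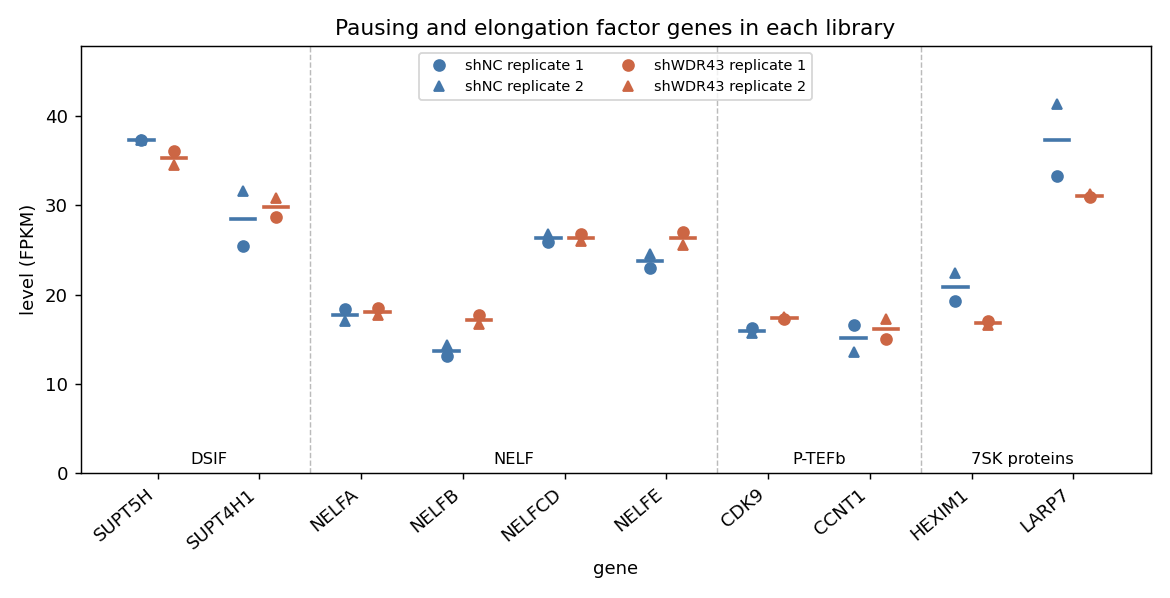
Level of each of the 10 genes in FPKM (vertical axis, from 0) in the 4 libraries, with circles for replicate 1, triangles for replicate 2 and short lines for group means. HEXIM1 and LARP7 are lower in both shWDR43 libraries than in both shNC libraries, while NELFB, NELFE and CDK9 are higher in both, and none of these differences passed the test.

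DSIF is the factor that both holds the paused polymerase and, once modified, helps it elongate. SUPT5H (ENSG00000196235, chromosome 19, 39436156 to 39476670), the large subunit with the domains that contact the polymerase, was at 37.3 and 37.3 FPKM in the controls and 36.1 and 34.5 FPKM in the knockdown libraries, replicate 1 first as in all pairs of values here. Both shWDR43 values were below both shNC values, by a small margin. The log2 difference was -0.0783 ± 0.0779 (SE, n = 2 per group; limma adjusted p = 0.564), and it was -0.137 and -0.148 under median-ratio and upper-quartile scaling. SUPT4H1 (ENSG00000213246, chromosome 17, 58345175 to 58353093), the small zinc-finger partner, was at 25.4 and 31.7 FPKM in the controls and 28.7 and 30.8 FPKM in the knockdown libraries. The shNC values enclosed both shWDR43 values, and the log2 difference was 0.0675 ± 0.113 (limma adjusted p = 0.743). SUPT4H1 overlaps RNF43, on the same strand at 20.3 to 24.7 FPKM, in the stretch from 58352500 to 58353093, so its level is uncertain. ENSG00000285897, on the same strand at 0.107 to 0.205 FPKM, spans nearly all of SUPT4H1.

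NELF is short for negative elongation factor. NELFB (ENSG00000188986, chromosome 9, 137255173 to 137273546), a core subunit that links the others, was at 13.1 and 14.3 FPKM in the controls and 17.7 and 16.7 FPKM in the knockdown libraries. Both knockdown libraries were above both controls, with means of 13.7 ± 0.872 and 17.2 ± 0.713 FPKM (SD, n = 2 each) and a ratio of 1.25. The log2 difference of 0.30 ± 0.0907 had a 95% interval of 0.0930 to 0.52 and did not pass (limma adjusted p = 0.0861). Without shNC replicate 2 it was 0.36 and passed (limma adjusted p = 0.0248), in a fit that called 19.8% of all tested genes.

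The other 3 NELF genes showed smaller differences. NELFE (ENSG00000204356, chromosome 6, 31952087 to 31959110), the subunit with an RNA-recognition motif, was at 23.0 and 24.6 FPKM in the controls and 27.0 and 25.6 FPKM in the knockdown libraries. The groups did not overlap, and the log2 difference was 0.14 ± 0.0836 (limma adjusted p = 0.331). It was 0.0805 with median-ratio and 0.0699 with upper-quartile scaling. SKIC2, on the opposite strand at 7.16 to 8.70 FPKM, overlaps NELFE only in the short stretch from 31959080 to 31959110. No source used here says whether the counting used strand. NELFA (ENSG00000185049, chromosome 4, 1982714 to 2041903), which contacts the polymerase, was at 18.3 and 17.1 FPKM in the controls against 18.4 and 17.7 FPKM. NELFCD (ENSG00000101158, chromosome 20, 58981208 to 58995133), the partner of NELFA, was at 25.9 and 26.7 FPKM against 26.8 and 26.0 FPKM. Values of NELFA and of NELFCD overlapped between groups, with log2 differences of 0.0286 (95% interval -0.17 to 0.23) and 0.00347 (-0.18 to 0.19).

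P-TEFb is the kinase that releases the paused polymerase. CDK9 (ENSG00000136807, chromosome 9, 127785679 to 127790787), its catalytic subunit, was at 16.2 and 15.7 FPKM in the controls and 17.3 and 17.5 FPKM in the knockdown libraries. Both shWDR43 libraries were slightly above both controls, with a log2 difference of 0.12 ± 0.0830 (limma adjusted p = 0.395). Under median-ratio scaling it was 0.0636 and under upper-quartile scaling 0.0531. CCNT1 (ENSG00000129315, chromosome 12, 48688458 to 48716998), the main cyclin of CDK9, was at 16.6 and 13.5 FPKM in the controls and 14.97 and 17.3 FPKM in the knockdown libraries. Each CCNT1 group had one lower and one higher library, and the log2 difference was 0.0963 ± 0.120 (limma adjusted p = 0.653).

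The 7SK proteins were the pair with lower levels in shWDR43. HEXIM1 (ENSG00000186834, chromosome 17, 45148502 to 45152101), the inhibitor that holds P-TEFb inactive, is annotated with 1 exon, the only such gene of the 10. It was at 19.2 and 22.4 FPKM in the controls and 17.0 and 16.5 FPKM in the knockdown libraries, so both knockdown libraries lay below both controls. The means were 20.8 ± 2.23 and 16.8 ± 0.327 FPKM (SD, n = 2 each), a ratio of 0.806. The log2 difference was -0.29 ± 0.0976, with a 95% interval of -0.52 to -0.0646 (limma adjusted p = 0.111). Less RNA per cell and fewer cells that express a gene cannot be told apart in these bulk libraries.

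LARP7 (ENSG00000174720, chromosome 4, 112636964 to 112657592), the La-related protein that binds the 3′ end of 7SK RNA, was at 33.3 and 41.3 FPKM in the controls and 30.9 and 31.3 FPKM in the knockdown libraries. The shWDR43 libraries were close to each other and below both controls, which differed from each other by more than shNC replicate 1 did from shWDR43. The log2 difference was -0.25 ± 0.11 (95% interval -0.50 to 0.00751; limma adjusted p = 0.200). For both 7SK proteins the size depended on which control was kept. Without shNC replicate 1 HEXIM1 stood at -0.40 (limma adjusted p = 0.0235) and LARP7 at -0.40 (limma adjusted p = 0.0170), in a fit that called 13.6% of all tested genes. Without shNC replicate 2 HEXIM1 stood at -0.19 (limma adjusted p = 0.141) and LARP7 at -0.0948 (limma adjusted p = 0.373). Without shWDR43 replicate 1 or 2 none of the 10 genes passed with limma, in fits that called 2.88% and 3.42% of all tested genes. LARP7 overlaps ZGRF1, on the opposite strand at 13.9 to 16.3 FPKM, only in the short stretch from 112636964 to 112636995.

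**Figure D2:**
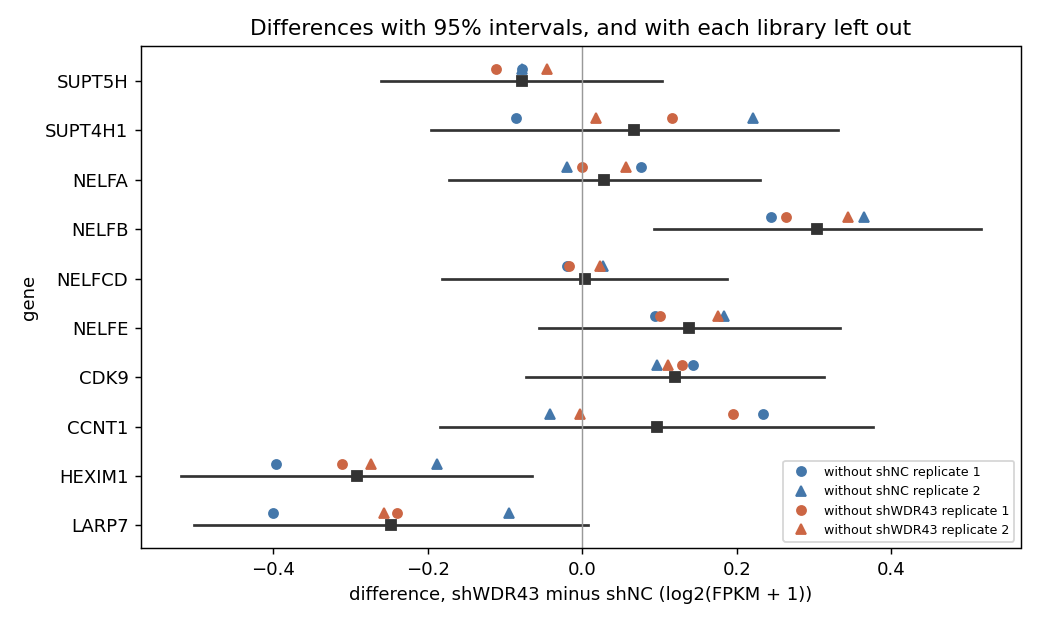
Difference between shWDR43 and shNC on the log2(FPKM + 1) scale (horizontal axis) for each gene, with squares and lines for the estimate and its 95% interval and coloured marks for the estimate with 1 library left out. The marks for HEXIM1 and LARP7 without shNC replicate 1 lie near -0.40, and those without shNC replicate 2 are nearest to 0.

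The lowest bound of the 10 intervals was -0.52, for HEXIM1, and the highest was 0.52, for NELFB. A 1.5-fold change in FPKM is 0.58 on the log2 scale, and somewhat less on the log2(FPKM + 1) scale of the intervals. The value 0.58, in either direction, lay outside every one of these 95% intervals, each taken singly. The intervals are those of the fit without added scaling. HEXIM1 stood farther from 0 with median-ratio (-0.349) and upper-quartile scaling (-0.359), for which intervals were not examined. For 1 gene at a time, an exact permutation test of these libraries allows no p under 0.333.

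Ratios between factors within a library do not depend on how a library was scaled, so they were set side by side, with pairs chosen after the levels had been seen and with no test. HEXIM1 to CDK9, inhibitor to kinase, was 1.19 and 1.43 in shNC and 0.983 and 0.944 in shWDR43. LARP7 to CDK9 was 2.05 and 2.64 in shNC and 1.79 and 1.79 in shWDR43. Both ratios were lower in each knockdown library than in each control. This direction was already given by the levels, since HEXIM1 and LARP7 were lower and CDK9 higher in both knockdown libraries. HEXIM1 to CCNT1 went from 1.16 and 1.65 to 1.14 and 0.955, where shNC replicate 1 and shWDR43 replicate 1 were nearly equal. CCNT1 to CDK9, cyclin to kinase at the level of RNA, was 1.02 and 0.865 against 0.866 and 0.989, with overlap.

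Among the pausing complexes, NELFB to NELFA was 0.715 and 0.839 in shNC and 0.957 and 0.942 in shWDR43. NELFB to SUPT5H was 0.351 and 0.384 in shNC and 0.489 and 0.483 in shWDR43. Each was higher in both knockdown libraries than in both controls. For NELFB to SUPT5H this too was given by the levels, with NELFB higher and SUPT5H lower in both knockdown libraries. The geometric mean of the 4 NELF genes over that of the 2 DSIF genes was 0.632 and 0.583 in shNC and 0.684 and 0.645 in shWDR43. SUPT4H1 to SUPT5H overlapped, at 0.680 and 0.848 against 0.795 and 0.894. These ratios compare levels per length and say nothing of protein amounts.

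**Figure D3:**
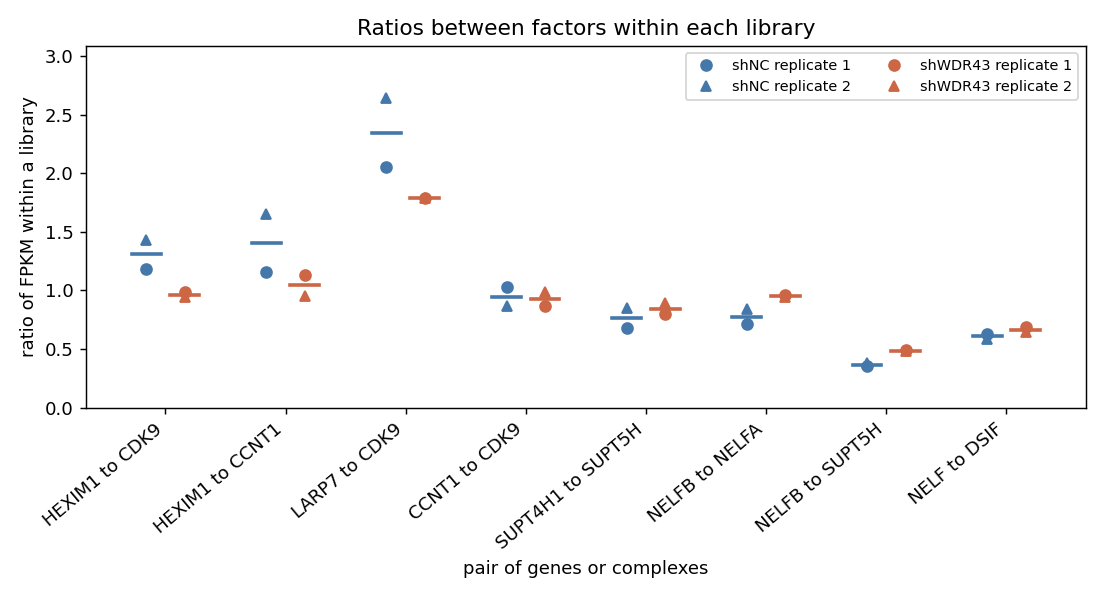
Ratio of FPKM between 2 genes, or between geometric means of NELF and DSIF genes, within each library (vertical axis, from 0), with circles for replicate 1, triangles for replicate 2 and short lines for group means. The ratios of HEXIM1 and LARP7 to CDK9 are lower in both shWDR43 libraries, and that of NELFB to SUPT5H is higher in both. These directions follow from the levels of the single genes.

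The 4-library profile of HEXIM1, centred on its own mean, was nearest to that of LARP7 among the other 9 genes, with a root mean square difference of 0.0450 on the log2 scale. NELFCD and SUPT5H were almost equally near each other, also at 0.0450. Over all tested genes the profiles most like that of HEXIM1 were those of FAIM (0.0102), RPP21 (0.0154) and PDIA3 (0.0159). PDIA3, which encodes a disulfide isomerase of the endoplasmic reticulum, was at 150 and 176 FPKM in the controls and 133 and 134 FPKM in the knockdown libraries. With 4 libraries and this many genes, near profiles are a description only.

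Of 95 other measured genes of the pathway, in 6 lists, 94 were tested, 7 rose and 2 fell, against 4.79% of all tested genes that rose and 1.47% that fell. The median log2 difference of the 94 was 0.00325. Leaving out either control raised the number of calls, and leaving out either knockdown library lowered it. The number over all tested genes moved in the same way. With no filter on low values 0 passed, and 17 of all genes did. With 1 library left out, log2 changes ran from 0.66 to 0.77 for DUSP1, 0.56 to 0.77 for IER5 and -0.63 to -0.54 for PCF11.

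Of the P-TEFb relatives, 7SK partners and release factors, 0 of 16 tested genes passed with limma, against 6.26% of all tested genes. An unadjusted p below 0.05 was found for 5 of the 16, against 26.4% of all tested genes. Their median log2 difference was -0.0778. TRIM28, a scaffold protein linked to pause release, had a log2 difference of 0.26 (limma adjusted p = 0.112), which was 0.33 and passed without shNC replicate 2 (limma adjusted p = 0.0180). MEPCE, the capping enzyme of 7SK RNA, and HEXIM2, the paralog of HEXIM1, are given here after their values were seen. MEPCE was at 6.87 and 6.39 FPKM in the controls and 5.94 and 4.76 FPKM in the knockdown libraries, for a log2 difference of -0.27 (limma adjusted p = 0.200). HEXIM2 was at 4.38 and 5.03 FPKM against 4.40 and 4.002 FPKM, so its groups overlapped. No value for the 7SK RNA itself, RN7SK, was used here.

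The super elongation complex, a larger assembly around P-TEFb, had 0 of 9 tested members that passed with limma and 0 at an unadjusted p below 0.05. The shares of all tested genes were 6.26% and 26.4%. The median log2 difference of the 9 was 0.0369. AFF4, its scaffold, was at 20.5 and 15.6 FPKM in the controls and 13.9 and 15.1 FPKM in the knockdown libraries. That difference of -0.29 (limma adjusted p = 0.210) came with a wide spread between the controls. Without shNC replicate 1 it was -0.0974 (limma adjusted p = 0.491), and without shNC replicate 2 it was -0.47 and passed (limma adjusted p = 0.0120). EAF1, a partner of the ELL proteins, had a log2 difference of 0.20 (limma adjusted p = 0.223). It overlaps METTL6, COLQ and EAF1-AS1 on the opposite strand, with means of 4.73, 3.62 and 1.09 FPKM.

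In the list of PAF1 complex, SPT6, FACT and other elongation factors, 2 of 18 rose and 2 fell. Of all tested genes 4.79% rose and 1.47% fell. At an unadjusted p below 0.05 there were 9 of the 18, against 26.4% of all tested genes. The median log2 difference of the list was -0.0741. PCF11, a factor for 3′ end cleavage and termination, fell from 13.0 and 13.0 FPKM to 8.66 and 8.05 FPKM, a log2 change of -0.58 ± 0.0898 (limma adjusted p = 0.0212). SETD2, the histone methyltransferase that travels with elongating polymerase, fell from 13.2 and 11.8 FPKM to 9.003 and 9.09 FPKM (log2 change -0.42, limma adjusted p = 0.0460). ELOC, the elongin C gene, whose product also serves in ubiquitin ligases, rose from 19.7 and 17.6 FPKM to 28.7 and 26.2 FPKM (log2 change 0.53, limma adjusted p = 0.0287). SKIC8, a subunit of the PAF1 and SKI complexes, rose from 22.8 and 24.9 FPKM to 30.4 and 31.98 FPKM (log2 change 0.37, limma adjusted p = 0.0480). SKIC8 overlaps DNAJA4 on the opposite strand, with a mean of 25.4 FPKM, so its level is uncertain. In all 4 genes the groups did not overlap, which was so in 57.3% of all tested genes. It adds no support, as the 4 were named because they passed on the same values. SETD2 and SKIC8 lost the call without either shWDR43 library, ELOC lost it without shWDR43 replicate 1, and SKIC8 also under either scaling and with robust settings off. With the replicate number as a block SETD2 (limma adjusted p = 0.0663) and SKIC8 (limma adjusted p = 0.0767) did not pass.

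Integrator, which can end transcription at paused polymerase, and the elongation phosphatases had 0 of 18 members that passed with limma. An unadjusted p below 0.05 was found for 5 of the 18. The shares of all tested genes were 6.26% and 26.4%. PPP2R1A, a scaffold of the phosphatase PP2A, was at 22.3 and 23.5 FPKM in the controls and 29.6 and 27.7 FPKM in the knockdown libraries, for a log2 difference of 0.31 (limma adjusted p = 0.0663). INTS1, the largest Integrator subunit, was at 15.5 and 14.1 FPKM against 18.7 and 18.9 FPKM, for a log2 difference of 0.33 (limma adjusted p = 0.0678). PPP2R1A passed without shNC replicate 2 (limma adjusted p = 0.0213) and with a filter at 5 FPKM (limma adjusted p = 0.0494), and INTS1 without shNC replicate 1 (limma adjusted p = 0.0243). Among RNA polymerase II subunits 5 of 13 were at an unadjusted p below 0.05, against 26.4% of all tested genes. The median log2 difference of these 13 was 0.11. Of the 13, 1 rose and 0 fell, against 4.79% and 1.47% of all tested genes. That gene was POLR2K, a small subunit shared with the other nuclear RNA polymerases, which rose from 20.3 and 21.0 FPKM to 30.2 and 27.2 FPKM (log2 change 0.45, limma adjusted p = 0.0334). POLR2K lost the call without shWDR43 replicate 1, under either scaling and with the replicate block (limma adjusted p = 0.0507).

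Among early-response genes, many of which are known for paused polymerase at their promoters, 4 of 20 rose and 0 fell. Of all tested genes 4.79% rose and 1.47% fell. At an unadjusted p below 0.05 there were 6 of the 20, against 26.4% of all tested genes. The median log2 difference of the list was 0.0484. DUSP1, a phosphatase of MAP kinases, rose from 10.6 and 11.1 FPKM to 17.8 and 19.3 FPKM, a log2 change of 0.71 ± 0.0894 (limma adjusted p = 0.0131). IER5 rose from 8.12 and 9.56 FPKM to 14.9 and 14.2 FPKM (log2 change 0.66, limma adjusted p = 0.0217). IER2 rose from 39.5 and 43.2 FPKM to 54.9 and 54.6 FPKM, and KLF6, a zinc-finger transcription factor, from 44.4 and 49.9 FPKM to 61.6 and 62.3 FPKM. The log2 changes were 0.40 for IER2 (limma adjusted p = 0.0369) and 0.39 for KLF6 (limma adjusted p = 0.0453), and both lost the call under either scaling and without either shWDR43 library. With the replicate block IER2 was at an adjusted p of 0.0677 and KLF6 at 0.0735 (limma). In these 4 genes, named because they passed, both knockdown libraries were above both controls, as in 35.8% of all tested genes. Of the 20 genes in the list, 9 had a negative log2 difference.

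**Figure D4:**
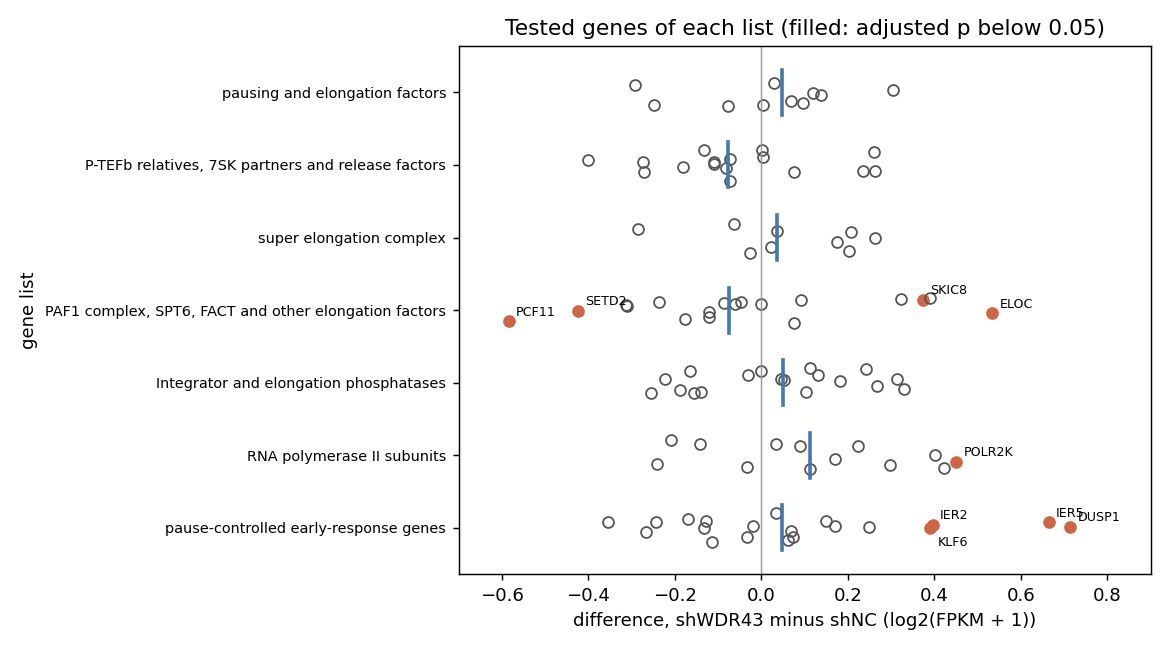
Difference between shWDR43 and shNC on the log2(FPKM + 1) scale (horizontal axis) for every tested gene of each list, with filled points for an adjusted p below 0.05 and vertical lines for list medians. None of the 10 pausing and elongation factors is filled, and DUSP1 and PCF11 are the outermost filled points, at 0.71 and -0.58.

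Over all tested genes 833 changed, 637 upward and 196 downward. The split became 295 to 221 when the values were rescaled by median ratios and 327 to 287 when they were rescaled by upper quartiles. Values per library summed to 393582 to 413758 FPKM, and the read totals are unknown. Genes of the mitochondrial genome held 26.8% and 25.5% of that sum in shNC and 24.6% and 23.9% in shWDR43, and the part of this in the differences above was not tested. All 8 epithelial marker genes were at 1 FPKM or more in every library, with a summed level of 1827 to 2167 FPKM in shNC and of 2612 to 2640 FPKM in shWDR43. The 5 measured blood and endothelial markers summed to at most 0.667 FPKM. Of 5 measured fibroblast markers only COL1A1 reached 1 FPKM, the list summed to 7.06 to 7.85 FPKM in shNC and to 5.77 to 7.20 FPKM in shWDR43, and LUM was listed at 0.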

How the data were processed

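RNA was measured in 4 libraries of HCT116 cells, 2 per group, each from 1 ug of total RNA with a TruSeq kit, per the labels' protocols. The submitters' processing notes name GRCh38 and CASAVA 1.8, with Trimmomatic, FastQC, HISAT2, RSEM and also edgeR, in no stated order or role. For the annotation release and the use of strand the sources used here give nothing. The values the authors deposited were taken to be FPKM, judged from the values alone, and TPM over a subset of genes would look similar. Ratios of low values between libraries showed no whole-read steps (the fullest 1% window held no more than 1.01% of genes), so depth is unknown.

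The 10 genes and all lists were chosen with earlier results of these data known. Symbols were found for 29170 of 29286 identifiers, a blank entry was dropped, and coordinates are those of GENCODE release 29 (GRCh38). Limma 3.58.1 (R 4.3.3) was fitted to log2(FPKM + 1) of genes with 1 FPKM or above in 2 or more libraries, with group as the single term and trended, robust variance moderation. P-values, two-sided, were corrected over all 13303 tested genes (Benjamini-Hochberg, threshold 0.05). The pseudocount shrinks log2 differences of low genes, and no scaling was added. The fit was tested on simulated data. Besides the 10 genes, the text names in each list up to 4 changed genes in order of p, or the first 2 by p where no gene changed, and the 3 genes most like HEXIM1. One gene that this rule names is not reported here. Alternatives were a pseudocount of 0.1, no filter or one at 5 FPKM, median-ratio or upper-quartile scaling, moderation without robust settings, the replicate number as a block, and each library left out in turn, where a single remaining library is taken to vary like the other group. A crossed block was added after the data were seen. Python 3.11.15 with pandas 2.3.3 and matplotlib 3.10.9 made the tables and plots.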

Additional observations from a re-analysis of the deposited data

How the results depend on the processing

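With all 4 libraries, 0 of the 10 genes passed under a pseudocount of 0.1, no filter, a filter at 5 FPKM, either scaling, robust settings off and the replicate block. Leaving out 1 library gave 0 to 2 of the 10, 377 to 2586 of all genes and 3 to 27 of the other pathway genes. Over all genes 17 passed without a filter and 516 under median-ratio scaling. Of the other pathway genes 0 passed without a filter. The labels share replicate numbers between groups but give no pairing, and same-numbered libraries deviated with a correlation of -0.147 across genes. With the replicate block 563 of all genes, 0 of the 10 and 4 of the other pathway genes passed, and IER2, KLF6, POLR2K, SETD2 and SKIC8 did not; with the crossed block, chosen after seeing the data, 1954, 2 and 20 did.

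Small differences changed sign, none passing either way. Under median-ratio scaling NELFA was at -0.0284 and NELFCD at -0.0546. Under upper-quartile scaling SUPT4H1 was at -0.00141, NELFA at -0.0389 and NELFCD at -0.0652. With 1 library left out SUPT4H1 ran from -0.0861 to 0.221, NELFA from -0.0194 to 0.0767, NELFCD from -0.0199 to 0.0269 and CCNT1 from -0.0419 to 0.234, with the ends at the fits without shNC replicate 1 or 2. SUPT5H, NELFB, NELFE, CDK9, HEXIM1 and LARP7 kept their sign in all 12 alternatives. Of these, SUPT5H, NELFE and CDK9 moved by over 1.5 times under scaling. Read depth is unknown, and 2 libraries per group limit what could be detected.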
